A study of Mus musculus with 4 samples.

Results

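The genes described here are the core of the mTORC1 pathway and Larp1, taken from RNA-seq of mouse late two-cell embryos. They were chosen by name, and all 10 of them (Mtor, Rptor, Mlst8, Akt1s1, Rheb, Tsc1, Tsc2, Rragc, Rps6kb1 and Larp1) were found among the 24411 genes listed in each library. Embryos of the ICR strain were produced by in vitro fertilization, cultured in KSOM medium with bovine serum albumin and collected at 36 h post-insemination (hpi), with 10 embryos pooled in each library. The embryos of 2 libraries were cultured with 6 µM 10074-G5, a compound known to interfere with the MYC and MAX dimer, and the 2 control libraries received DMSO, the solvent. The treatment started at the one-cell stage, at 3 hpi according to the treatment protocol and at 6 hpi according to the design text. The mRNA of the 10 genes was measured, and the phosphorylation of their proteins was not.

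mTORC1 is a protein kinase complex that couples growth factors, energy and amino acids to protein synthesis. Mtor encodes its kinase, Rptor the subunit that recruits substrates, Mlst8 a subunit that stabilizes the kinase domain, and Akt1s1 the inhibitory subunit PRAS40. Rheb is the small GTPase that switches the kinase on at the lysosome, the TSC1 and TSC2 proteins form the complex that switches RHEB off, and Rragc encodes one of the Rag GTPases that bring mTORC1 to the lysosome when amino acids are present. S6 kinase, the product of Rps6kb1, is a substrate of mTORC1, and LARP1 is an RNA-binding protein that holds the cap and the pyrimidine-rich start of ribosomal protein mRNAs and is itself under the control of mTORC1. MYC is known to drive ribosome production in many cells.

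The expected counts summed to between 18206584 and 20718690 in a library, and 13549 genes passed the filter on low counts, all 10 genes of interest among them. Of the libraries, DMSO replicate 1 stood apart. It differed by over 2-fold from DMSO replicate 2 for 37.3% of the tested genes, whereas DMSO replicate 2 differed by over 2-fold from the inhibitor-treated replicates for 23.1% and 18.3%. All 6 marker genes of the two-cell embryo reached 1 FPKM (fragments per kilobase of transcript, scaled to the library), with summed levels of 1176 and 3149 FPKM in DMSO replicates 1 and 2 and of 5122 and 4294 FPKM in inhibitor-treated replicates 1 and 2. The sums over 10 oocyte transcripts followed the same order, at 893, 2152, 4476 and 3683 FPKM. Of 12 cumulus cell markers, Ptx3, Amh and Foxl2 were at 0 in every library, 3 reached 1 FPKM in any library, and the sums were between 1.15 and 7.31 FPKM. Of 6 sperm and testis markers, Prm1 and Tnp2 were at 0 in every library, 3 reached 1 FPKM in any, and the sums were at most 4.44 FPKM in control and were 16.1 and 9.43 FPKM in treated embryos. The part of these marker levels in the results below was not tested. In libraries of pooled embryos made from polyadenylated RNA, fewer transcripts per embryo, fewer contributing cells and shorter poly(A) tails cannot be told apart.

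MYC and MAX bind E-boxes, of which the canonical form is CACGTG, and the promoters of the 10 genes were therefore searched for it. The window of 250 bases before to 50 bases after the RefSeq start (GRCm38.p6) was available for each gene. For Akt1s1 this window lies within its GENCODE M21 gene, downstream of the start of that gene at 44848991. CACGTG, which reads the same on both strands, was found in 2 of the 10 windows, those of Rheb and Rragc, and in 7.15% of the 32851 promoter windows of the reference. It lay 96 bases before the Rheb start, at chr5:24842452-24842457, and 112 bases before the Rragc start, at chr4:123917321-123917326. The related form CACGCG, searched on both strands as CACGCG and CGCGTG, was found in the windows of Larp1 and Tsc2 and in 9.27% of all windows. The stretches below are shown because their genes had the largest differences among the well-measured members, and capitals mark the searched letters. For Rheb, 30 bases are given (chr5:24842440-24842469, minus strand), since the GENCODE M21 gene starts 263 bases upstream of the RefSeq start and this stretch lies within it. For Rragc (chr4:123917273-123917392, plus strand) and Larp1 (chr11:58008904-58009023, plus strand), 120 bases upstream of the start are given.
Rheb: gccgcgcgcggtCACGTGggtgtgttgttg
Rragc: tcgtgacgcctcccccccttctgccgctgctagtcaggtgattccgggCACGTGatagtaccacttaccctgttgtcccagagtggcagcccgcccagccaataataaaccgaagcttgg
Larp1: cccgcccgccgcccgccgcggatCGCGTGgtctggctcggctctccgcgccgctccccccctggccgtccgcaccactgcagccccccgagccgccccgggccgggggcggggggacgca
A match gives the position of the letters and was not tested for binding.

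The 10 genes spanned a wide range of levels per transcript length. Rheb had the highest mean over the 4 libraries, 202 FPKM, and Rragc followed with 115 FPKM. Both were far above the other members, and 94.9% and 91.4% of the tested genes had a mean at or below theirs. Rps6kb1 had a mean of 19.2 FPKM and Larp1 of 5.20 FPKM. Mtor itself was low, at 2.76 FPKM, close to Akt1s1 at 3.30 FPKM and Tsc1 at 2.25 FPKM. Tsc2 had 0.960 FPKM, Mlst8 0.665 FPKM and Rptor 0.305 FPKM, so that the lowest levels were those of structural subunits and of a subunit of the inhibitory complex. In this order, the ranges over the libraries did not overlap between Rragc and Rps6kb1, between Rps6kb1 and Larp1, or between Tsc1 and Tsc2. The ranges of all other neighbours overlapped, Rheb and Rragc included.

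**Figure D1:**
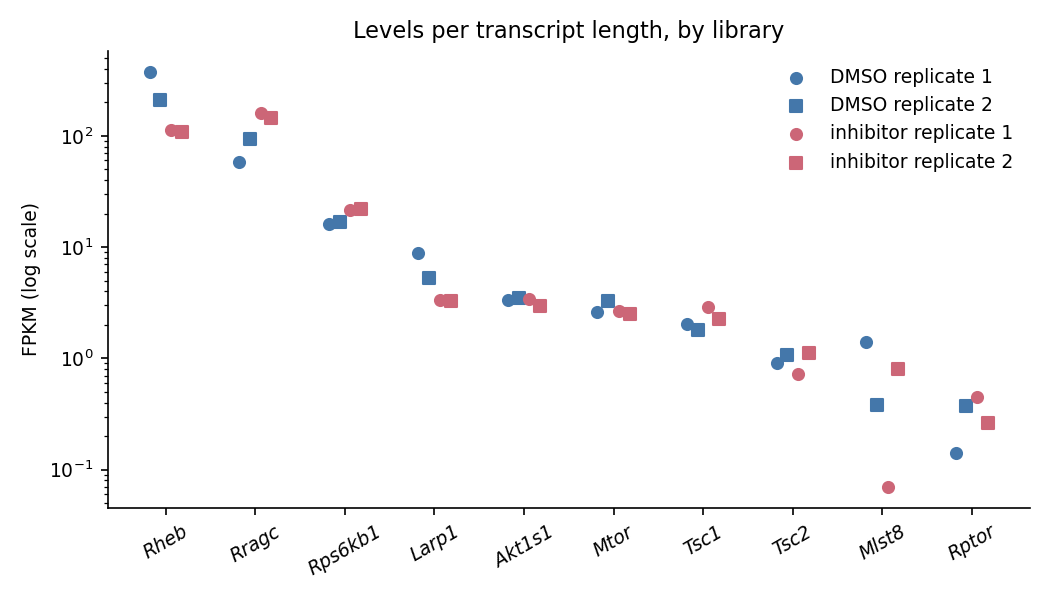
FPKM (log scale) of the 10 genes in each library, ordered by the mean over the 4 libraries, with circles for replicate 1 and squares for replicate 2 of the DMSO (blue) and inhibitor (red) groups. Rheb is above Rragc in both DMSO libraries and below it in both inhibitor-treated libraries.

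The order of the highest 2 members differed between the groups. In FPKM, Rheb was above Rragc in both DMSO libraries (378 against 57.6 and 209 against 93.9) and below it in both inhibitor-treated libraries (112 against 162 and 109 against 146). By the quasi-likelihood test of edgeR (Benjamini-Hochberg adjustment, |log2FC| > 1, adjusted p under 0.05), 0 of the 13549 tested genes (0%) were called in either direction, and thus 0 of the 10. Without adjustment, 639 genes were higher and 1374 lower at p under 0.05. At an unadjusted p under 0.05, 2 of the 10 genes were lower in inhibitor-treated embryos, Rheb and Larp1, against 10.1% of all tested genes, and 1 was higher, Rragc, against 4.72%. The DESeq2 package, which the authors used, called 1 of the 10 when run on all genes with at least 1 count. This was Rheb, among 2.4% of genes called lower, with 0.478% called higher. Rheb was also the 1 member called by DESeq2 with transcript lengths (2.36% of genes lower, 0.456% higher) and by edgeR without the filter on low counts (2.63% lower, 0.906% higher). Without DMSO replicate 1, 1 member was lower (Rheb, against 7.36% of tested genes) and 1 higher (Rragc, against 6.44%) at an unadjusted p under 0.05. Each p from a fit that omits a DMSO library rests on 1 control, which is assumed to vary like the treated pair. The median log2FC was -0.17 over the 10 genes and 0.04 over all tested genes with TMM scaling, and -0.03 and 0.17 with library totals alone, with 6 of the 10 genes lower and 4 higher in the fit with TMM scaling. The groups did not overlap in CPM (counts scaled to library size with TMM factors) for 3 lower genes (Rheb, Larp1 and Mtor) and 2 higher genes (Rragc and Rps6kb1), against 28.3% and 28.9% of all tested genes. In FPKM, they did not overlap for 2 lower genes (Rheb and Larp1) and 3 higher genes (Rragc, Rps6kb1 and Tsc1), against 25.4% and 31.4%. Without DMSO replicate 1, 3 members were lower and 3 higher with no overlap in CPM, against 38% and 37.2% of tested genes.

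**Figure D2:**
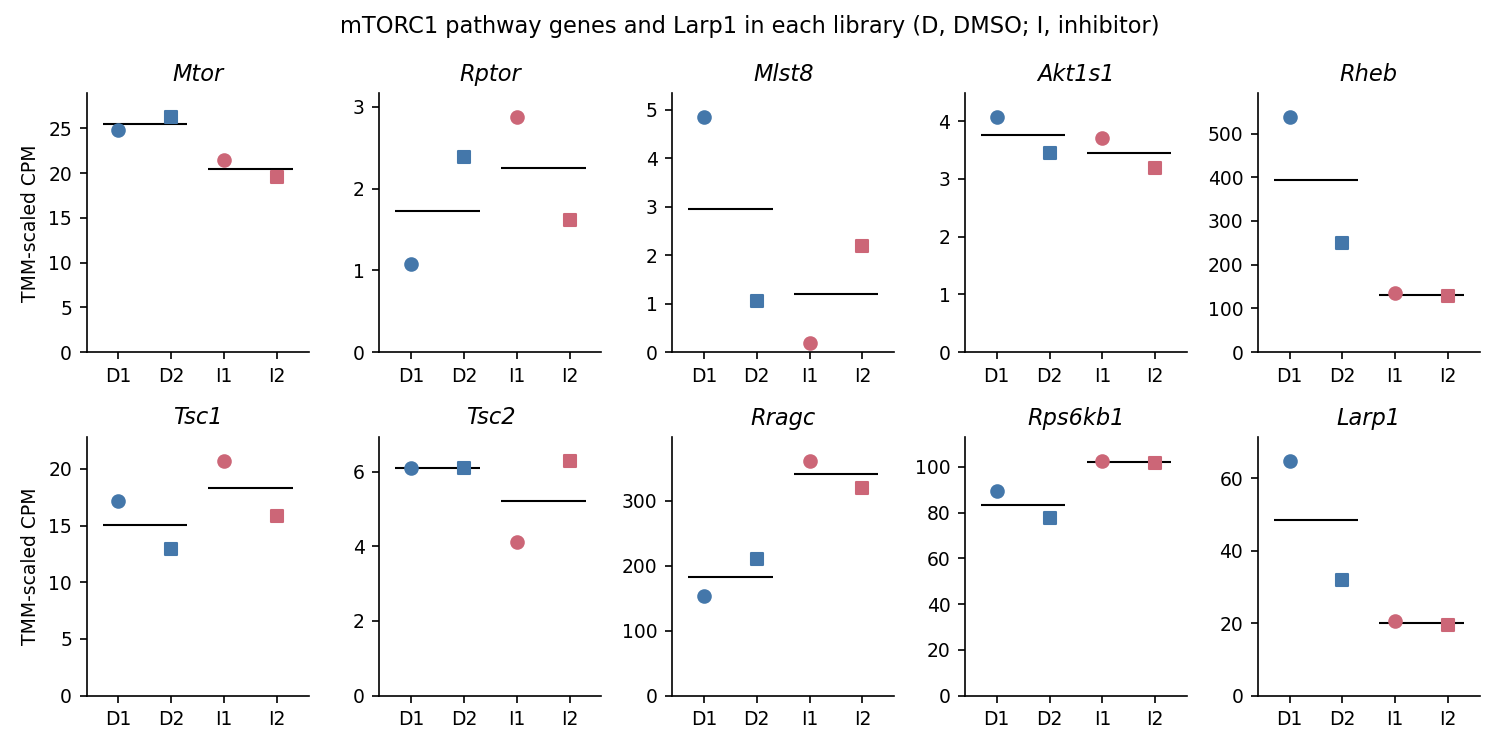
TMM-scaled CPM of each gene in DMSO replicates 1 and 2 (D1, D2, blue) and inhibitor-treated replicates 1 and 2 (I1, I2, red), with a line at the mean of each group and a separate axis from 0 for each gene. Rheb and Larp1 are lower and Rragc is higher in both treated libraries, and DMSO replicate 1 is the farthest from them for each of the 3 genes.

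Rheb, the direct activator of the mTORC1 kinase, lies on chromosome 5 of GRCm38 from 24802823 to 24842624. Its CPM was 538 in DMSO replicate 1 and 250 in DMSO replicate 2, and 135 and 128 in inhibitor-treated replicates 1 and 2. Both treated libraries were below both controls, and the controls differed more from each other than the treated libraries did. The means were 394 ± 204 CPM in control and 131 ± 4.94 CPM in treated embryos (SD, n = 2 each), 3.00-fold lower with the inhibitor. The log2FC of Rheb was -1.59 by edgeR (standard error, SE, 0.45; unadjusted p = 0.00896, adjusted p = 0.333) and -1.60 by DESeq2 (SE 0.48, adjusted p = 0.0246). Over the 14 alternatives its adjusted p ranged from 0.000377 to 0.992. Without DMSO replicate 1 the log2FC was -0.92, and without DMSO replicate 2 it was -2.04. Without inhibitor replicates 1 and 2 it was -1.58 and -1.55. No exon of another GENCODE gene overlaps those of Rheb. Its paralog Rhebl1, which also encodes a RHEB-type GTPase, was abundant at 119 and 133 FPKM in control and 120 and 114 FPKM in treated embryos. In CPM the groups of Rhebl1 did not overlap, with 128 and 120 in control and 108 and 101 in treated embryos. The log2FC of Rhebl1 was -0.25 (SE 0.34, adjusted p = 0.738 by edgeR).

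Tsc1 and Tsc2, whose products inactivate RHEB together, did not share the pattern of Rheb. Tsc1 (chromosome 2, 28641228 to 28691167) had 17.2 and 12.9 CPM in DMSO replicates 1 and 2 and 20.7 and 15.8 CPM in the treated replicates. Its log2FC was 0.28 (SE 0.47, adjusted p = 0.787 by edgeR), and the groups overlapped. Tsc2 (chromosome 17, 24595816 to 24632630) had 6.11 and 6.09 CPM in control and 4.13 and 6.30 CPM in treated embryos, for a log2FC of -0.23 (SE 0.62, adjusted p = 0.876 by edgeR). The treated libraries of Tsc2 lay on both sides of the controls. Exons of Tsc2 share 693 bases with those of Pkd1 on the opposite strand. Whether the counting used the strand is not given in the sources used here, so the counts of Tsc2 are uncertain. The same holds for each member below whose exons share bases with a gene on the opposite strand. Within a library, where scaling has no part, the ratio of Rheb to Tsc2 in FPKM was 415 and 193 in DMSO replicates 1 and 2 and 154 and 97.1 in the treated replicates. The mean log2 ratio was lower by 1.21 in treated embryos (exact two-sided permutation test, p = 0.333), which is the smallest p that 2 libraries against 2 allow. The log2 ratio of Tsc1 to Tsc2 was higher by 0.56, with overlapping groups (exact two-sided permutation test, p = 0.667).

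Rragc, which encodes the RagC GTPase of the amino acid branch, lies on chromosome 4 from 123917446 to 123936997 and was the member with the largest positive difference. Its CPM was 154 and 211 in DMSO replicates 1 and 2 and 362 and 320 in the treated replicates, with no overlap. The means were 182 ± 40.3 CPM in control and 341 ± 29.9 CPM in treated embryos (SD, n = 2 each), 1.87-fold higher with the inhibitor. The log2FC of Rragc was 0.90 by edgeR (SE 0.37, unadjusted p = 0.0400, adjusted p = 0.333) and 0.90 by DESeq2 (adjusted p = 0.134), and its lowest value with any 1 library omitted was 0.71, without DMSO replicate 1. Exons of Rragc share 264 bases with the gene 4930535I16Rik on the opposite strand.

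The kinase complex itself showed smaller or less certain differences. Mtor (chromosome 4, 148448611 to 148557683) had 24.8 and 26.3 CPM in control and 21.4 and 19.6 CPM in treated embryos. Its groups were close but did not overlap in CPM, and they overlapped in FPKM, with 2.60 and 3.28 FPKM against 2.68 and 2.49 FPKM. The log2FC of Mtor was -0.32 (SE 0.42, adjusted p = 0.727 by edgeR), and it ranged from -0.34 to -0.25 when any 1 library was omitted. Rptor (chromosome 11, 119602905 to 119899576) had rounded counts of 18 and 45 in control and 62 and 34 in treated embryos, for a log2FC of 0.38 (SE 1.02, adjusted p = 0.874 by edgeR). Its counts were low, the groups overlapped, and the sign turned without DMSO replicate 1. Exons of Rptor share 84 bases with Rptoros on the opposite strand. Mlst8 (chromosome 17, 24473551 to 24479078) had rounded counts of 81 and 20 in control and 4 and 46 in treated embryos. This was the widest spread within a group among the 10 genes, and its log2FC of -1.31 had a SE of 1.37 (adjusted p = 0.648 by edgeR) and was 0.19 without DMSO replicate 1. Exons of Mlst8 share 997 bases with Bricd5 on the opposite strand. Akt1s1 (chromosome 7, 44848991 to 44855421), the gene of the inhibitory subunit, had low but similar rounded counts, 68 and 65 in control and 80 and 67 in treated embryos. The log2FC of Akt1s1 was -0.12 (SE 0.72, adjusted p = 0.945 by edgeR). Its exons share 89 bases with Tbc1d17 on the opposite strand and hold Mir707, a microRNA gene of the same strand. A difference as large as that of Rragc (log2FC 0.905) was within 2 SE for Rptor, Mlst8, Akt1s1 and Tsc2, the members with the lowest counts. It was also within 2 SE for Tsc1 (SE 0.466), Larp1 (SE 0.474) and, narrowly, Rheb (SE 0.453). The log2 ratio of Rptor to Mtor within a library was higher by 0.76 in treated embryos, with overlapping groups (exact two-sided permutation test, p = 0.667).

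Rps6kb1, the gene of the S6 kinase, lies on chromosome 11 from 86498871 to 86544805 and had 89.5 and 77.6 CPM in control and 103 and 102 CPM in treated embryos. Both treated libraries were above both controls and nearly equal to each other. The log2FC of Rps6kb1 was 0.29 (SE 0.35, adjusted p = 0.692 by edgeR), and it stayed positive in all 14 alternatives, between 0.19 and 0.44. With no overlap in CPM there was hardly any room for a change of sign. Exons of Rps6kb1 share 155 bases with Rnft1 on the opposite strand.

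Larp1, the gene of the protein that binds ribosomal protein mRNAs, lies on chromosome 11 from 58009064 to 58062034, with no exon shared with another GENCODE gene. Its CPM was 64.9 in DMSO replicate 1 and 32.0 in DMSO replicate 2, and 20.5 and 19.5 in the treated replicates. As for Rheb, both treated libraries were below both controls and close to each other, and DMSO replicate 1 was the highest. In FPKM the means were 7.09 ± 2.61 in control and 3.31 ± 0.0849 in treated embryos (SD, n = 2 each), and the fitted fold was 2.42-fold lower with the inhibitor. The log2FC of Larp1 was -1.28 by edgeR (SE 0.47, unadjusted p = 0.0292, adjusted p = 0.333) and -1.29 by DESeq2 (adjusted p = 0.0983). It was -0.66 without DMSO replicate 1, and the unadjusted p was then 0.0823. Over the 14 alternatives the adjusted p of Larp1 ranged from 0.00250 to 0.992. The ratio of Larp1 to Mtor in FPKM was 3.43 and 1.60 in DMSO replicates 1 and 2 and 1.26 and 1.31 in the treated replicates, a mean log2 ratio lower by 0.87 (exact two-sided permutation test, p = 0.333).

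**Figure D3:**
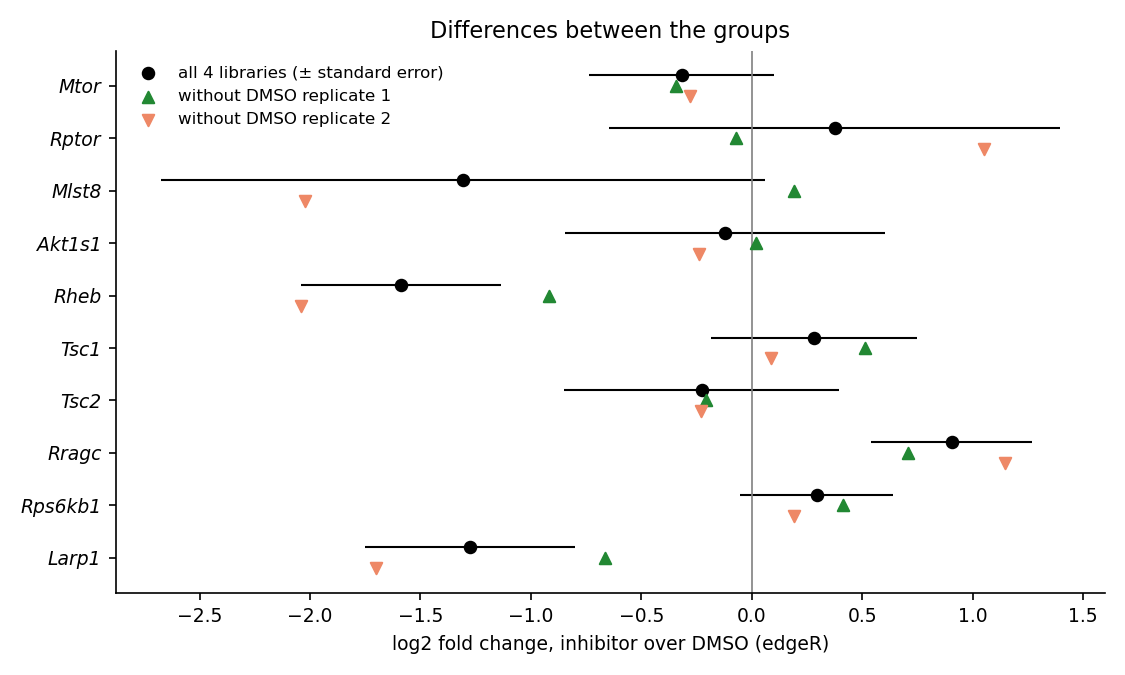
The log2 fold change of inhibitor-treated over DMSO embryos from edgeR for each gene, with all 4 libraries (black, bars of 1 standard error), without DMSO replicate 1 (green) and without DMSO replicate 2 (orange). Without DMSO replicate 1, Rheb is at -0.92, Larp1 at -0.66 and Rragc at 0.71, and Rptor, Mlst8 and Akt1s1 are on the other side of 0.

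The mRNAs that LARP1 is known to bind were measured in the same libraries. All 79 cytosolic ribosomal protein genes that were written down were tested, and all 79 had a negative log2FC, with a median of -1.36. At an unadjusted p under 0.05, 69 of the 79 were lower, against 10.1% of all tested genes. Their levels summed to 102450 and 54079 FPKM in DMSO replicates 1 and 2 and to 29935 and 37053 FPKM in the treated replicates, and the median was -0.65 without DMSO replicate 1. Many of these genes have near-identical pseudogenes, which makes single counts uncertain. The level of Larp1 for each 1000 FPKM of ribosomal protein mRNA was 0.0872 and 0.0969 FPKM in control and 0.113 and 0.0877 FPKM in treated embryos, so that the groups overlapped on this scale.

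Around the 10 genes, 100 further genes of the pathway were written down in 8 lists, of which 99 were listed and 96 tested. At an unadjusted p under 0.05, 2 of the 96 were higher and 10 were lower, together 12.5%, against 14.9% of all tested genes in either direction. All 12 kept their direction without DMSO replicate 1. This adds little, since the groups of all 12 did not overlap in CPM, which leaves hardly any room for a change of sign. DESeq2 called 3 of the 96 lower (Prkaa1, Rps6 and Phgdh) and 0 higher, against 2.4% and 0.478% of all genes with a count. The share at an unadjusted p under 0.05 was therefore near the background, and the median log2FC was -0.05. For each list below the same background applies, 4.72% of all tested genes higher and 10.1% lower, and no list was tested as a set.

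**Figure D4:**
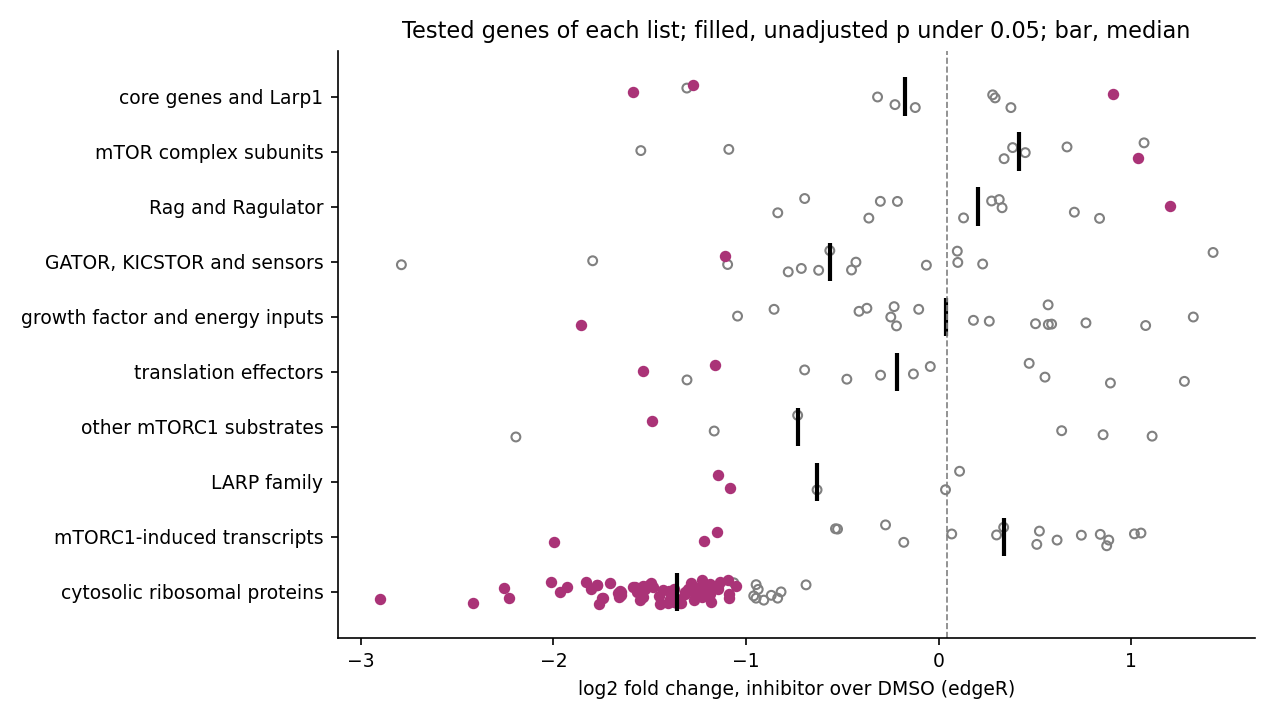
The log2 fold change from edgeR of the tested genes of each list, with a bar at the median of the list, a dashed line at the median of all tested genes (0.04), and filled points for an unadjusted p under 0.05. The pathway lists lie on both sides of 0, and the cytosolic ribosomal proteins all lie below it.

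Among 8 other subunits and assembly factors of the mTOR complexes, 1 was higher and 0 were lower at an unadjusted p under 0.05, and the median log2FC was 0.42 (0.19 with DMSO replicate 1 omitted and 0.86 with DMSO replicate 2 omitted). The higher gene was Deptor, an inhibitor of mTOR, with 5.30 and 11.3 FPKM in control and 19.9 and 16.5 FPKM in treated embryos (log2FC 1.03, SE 0.42, adjusted p = 0.333 by edgeR). Its groups did not overlap, and omission of DMSO replicate 1 gave 0.68. The mTORC2 subunit genes Mapkap1 and Rictor were the most abundant of this list. Mapkap1 had 22.8 and 32.0 FPKM in control and 41.1 and 36.8 FPKM in treated embryos, and Rictor had 8.57 and 18.4 FPKM against 19.0 and 20.5 FPKM. Their log2FC was 0.38 and 0.45, each within 2 SE of 0, and that of Rictor was 0.10 without DMSO replicate 1.

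The 12 genes of the Rag and Ragulator list, which anchors mTORC1 to the lysosome, had a median log2FC of 0.20 that turned to -0.25 without DMSO replicate 1 and was 0.022 without inhibitor replicate 1, with 1 gene higher and 0 lower at an unadjusted p under 0.05. This gene was Lamtor2, a Ragulator subunit, with 83.5 and 157 FPKM in control and 311 and 279 FPKM in treated embryos (log2FC 1.20, SE 0.41, adjusted p = 0.333 by edgeR). As for Rragc, both treated libraries were above both controls and DMSO replicate 1 was the lowest, and the log2FC of Lamtor2 was 0.92 without that library. The other abundant Ragulator genes differed less. Lamtor1 had 114 and 125 FPKM in control and 130 and 97.0 FPKM in treated embryos (log2FC -0.21), and Lamtor5 had 29.7 and 68.5 FPKM against 83.0 and 87.3 FPKM (log2FC 0.70, SE 0.45, and 0.32 without DMSO replicate 1).

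Of the 15 tested genes of GATOR, KICSTOR and the amino acid sensors, which set the state of the Rag GTPases, 0 were higher and 1 was lower at an unadjusted p under 0.05, with a median log2FC of -0.56 that was -0.20 without DMSO replicate 1 and -0.19 with limma on log2(FPKM + 1). The lower gene was Castor1 (listed as Gatsl3), the arginine sensor, with 37.4 and 30.4 FPKM in control and 17.7 and 17.4 FPKM in treated embryos (log2FC -1.11, SE 0.42, adjusted p = 0.333 by edgeR). The treated replicates were close to each other, the controls differed more (54.4 CPM in DMSO replicate 1 and 37.1 CPM in DMSO replicate 2), and omitting DMSO replicate 1 gave -0.79. The most abundant were Seh1l and Sec13, which also belong to the nuclear pore. Seh1l had 139 and 78.4 FPKM in control and 88.7 and 83.4 FPKM in treated embryos, with overlapping groups and a log2FC of -0.56 that turned to 0.057 without DMSO replicate 1, and Sec13 had 58.0 and 72.5 FPKM against 76.1 and 76.9 FPKM.

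Of the 18 genes of the growth factor and energy inputs, 0 were higher and 1 was lower at an unadjusted p under 0.05, with a median log2FC of 0.04 that was -0.036 without DMSO replicate 1. Prkaa1, which encodes a catalytic subunit of the energy sensor AMPK, had 11.96 and 6.68 FPKM in control and 1.97 and 3.88 FPKM in treated embryos. The fold change of Prkaa1 was -1.86 by edgeR on the log2 scale (SE 0.56, adjusted p = 0.333) and -1.87 by DESeq2 (adjusted p = 0.0332), and -1.19 without DMSO replicate 1. Ddit4l, related to the stress-induced mTORC1 inhibitor Ddit4, had 69.2 and 155 FPKM in control and 173 and 182 FPKM in treated embryos (log2FC 0.57, SE 0.42, and 0.20 without DMSO replicate 1).

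Of the 12 translation effectors, 2 were lower and 0 higher at an unadjusted p under 0.05, with a median log2FC of -0.22. Eif4e, the cap-binding protein that the 4E-BP inhibitors sequester, had 2101 and 1159 FPKM in control and 757 and 896 FPKM in treated embryos. Its log2FC was -1.16 (SE 0.48, adjusted p = 0.334 by edgeR), and -0.49 without DMSO replicate 1. Rps6, the ribosomal protein that S6 kinase phosphorylates, had 1012 and 498 FPKM in control and 268 and 325 FPKM in treated embryos, with a log2FC of -1.54 by edgeR (SE 0.49, adjusted p = 0.333) and -1.55 by DESeq2 (adjusted p = 0.0346). Without DMSO replicate 1 the log2FC of Rps6 was -0.75. The 4E-BP gene Eif4ebp1 had 48.2 and 70.3 FPKM in control and 95.2 and 93.1 FPKM in treated embryos, with no overlap and a log2FC of 0.55 (SE 0.37, adjusted p = 0.476 by edgeR).

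Of 7 genes listed as other mTORC1 substrates or targets downstream of it, 1 was lower and 0 higher at an unadjusted p under 0.05. The median log2FC was -0.73, and 0.35 without DMSO replicate 1. Cad, the enzyme of the first steps of pyrimidine synthesis, had 3.76 and 1.52 FPKM in control and 1.02 and 1.16 FPKM in treated embryos (log2FC -1.49, SE 0.63, adjusted p = 0.334 by edgeR), and DMSO replicate 1 stood apart from the other libraries, without which the log2FC was -0.50. The autophagy genes Atg13 and Ulk1 had a log2FC of -1.16 (SE 0.51) and -0.73 (SE 0.59), which were -0.46 and 0.35 without DMSO replicate 1, so that the sign of Ulk1 turned. The log2FC of Tfe3, a transcription factor of lysosomal genes, was 0.85 (SE 0.43).

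The LARP family held 2 lower genes besides Larp1 among 5 other tested members at an unadjusted p under 0.05, and 0 higher, against 10.1% and 4.72% of all tested genes. The median log2FC of the 5 was -0.63, and -0.14 without DMSO replicate 1. Larp1b, the paralog of Larp1, had 236 and 170 FPKM in control and 93.8 and 122 FPKM in treated embryos, far above the 8.93 and 5.24 FPKM of Larp1 in control embryos. The log2FC of Larp1b was -1.08 (SE 0.40, adjusted p = 0.333 by edgeR), and -0.66 without DMSO replicate 1. Larp4, which binds poly(A) tails, had 203 and 146 FPKM in control and 82.0 and 95.4 FPKM in treated embryos, for a log2FC of -1.14 (SE 0.41, adjusted p = 0.333 by edgeR), and -0.72 without DMSO replicate 1. For both genes the treated libraries were below the controls. Ssb, the gene of the La protein after which the family is named, had 209 and 331 FPKM in control and 292 and 308 FPKM in treated embryos, and its log2FC was 0.04 (SE 0.36, adjusted p = 0.971 by edgeR) and turned to -0.14 without DMSO replicate 1. Larp6 was listed at 0 in every library.

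Transcripts that mTORC1 is known to induce through ATF4, SREBP and HIF1 in other cells were written down as a list of 19, and 3 of these were lower and 0 higher at an unadjusted p under 0.05, with a median log2FC of 0.34 that was 0.060 without DMSO replicate 1. Phgdh and Psat1, the first enzymes of serine synthesis, were lower. Phgdh had 30.6 and 9.88 FPKM in control and 5.77 and 5.93 FPKM in treated embryos, with a log2FC of -1.997 by edgeR (SE 0.65, adjusted p = 0.333) and -2.02 by DESeq2 (adjusted p = 0.0379), with -0.75 when DMSO replicate 1 was omitted. Psat1 had 300.4 and 175 FPKM in control and 117 and 125 FPKM in treated embryos (log2FC -1.15, SE 0.44, adjusted p = 0.333 by edgeR), and omission of DMSO replicate 1 gave -0.53. Scd1, a fatty acid desaturase, had 35.1 and 20.7 FPKM against 9.58 and 17.6 FPKM (log2FC -1.22, SE 0.49, adjusted p = 0.333 by edgeR), and omission of that library gave -0.61. Mthfd2, a mitochondrial folate enzyme, had the opposite sign, with 39.8 and 97.3 FPKM in control and 156 and 139 FPKM in treated embryos (log2FC 1.02, SE 0.44, adjusted p = 0.337 by edgeR). Omitting DMSO replicate 1 gave 0.60 for Mthfd2, and omitting DMSO replicate 2 gave 1.63. Atf4 itself had 149 and 114 FPKM in control and 87.2 and 116 FPKM in treated embryos, with a log2FC of -0.54 (SE 0.39), and -0.18 without DMSO replicate 1.

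The genes most like Larp1 and Mtor in their values over the libraries were found among the 5156 other tested genes with a mean of at least 10 FPKM, by the root mean square distance of log2 CPM after subtraction of the gene mean. For Larp1 these were Kdm1a (distance 0.025), Ivns1abp (0.030) and Rpl21 (0.034). Kdm1a, a histone demethylase gene, had 24.8 and 14.5 FPKM in control and 9.10 and 8.68 FPKM in treated embryos, and Rpl21, a ribosomal protein gene, had 237 and 149 FPKM against 95.2 and 92.2 FPKM. For Mtor they were Smc4 (0.027), Fgf1 (0.030) and Vbp1 (0.031). Within a wider distance of 0.2 there were 501 genes for Larp1 and 574 for Mtor, over only 4 libraries.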

How the data were processed

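RNA-seq libraries of late two-cell embryos were compared between 2 DMSO and 2 inhibitor-treated libraries, grouped and numbered by the labels. The authors aligned read pairs of SMART-Seq cDNA to mm10 with STAR (version 2.7.10), retained reads with a unique position, and estimated gene abundance with RSEM (version 1.3.3). The deposited expected counts are RSEM's estimated fragments per gene, not normalized, and the deposited FPKM and TPM are scaled by the authors to effective transcript length and library. Expected counts were rounded, filtered with filterByExpr (minimum count 10, minimum total count 15), scaled with TMM factors and tested with edgeR 4.0.16 (quasi-likelihood, robust) in R 4.3.3. Standard errors were derived from the F statistic. Levels between genes were compared in FPKM. Alternatives used DESeq2 1.42.0, limma 3.58.1, other scalings and filters, the replicate block and each library left out. Empty adjusted p-values of DESeq2 stayed empty. The tests were first run on simulated counts. Gene positions and exon overlaps are from GENCODE M21 (GRCm38), promoters from RefSeq (GRCm38.p6).

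The genes and lists were chosen with earlier results of these data known. The named genes were the 10 members, the 3 genes of each pathway list with the highest mean FPKM, every pathway gene with an unadjusted p under 0.05, and the 3 genes most like Larp1 or Mtor. 1 gene under this rule is not reported here. The p-values measure the spread between libraries of pooled embryos. PCR duplicates were not marked, so counts are not counts of molecules.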

Additional observations from a re-analysis of the deposited data

How the results depend on the processing

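Rheb, Larp1, Mtor, Rragc, Rps6kb1 and Tsc1 kept their direction in all 14 alternatives. Except for Tsc1, the groups of these genes did not overlap in CPM. This leaves hardly any room for a change of sign, so the kept direction adds little. With 1 library omitted, the log2FC of Rptor ranged from -0.072 (without DMSO replicate 1) to 1.05 and was -0.057 without inhibitor replicate 1. That of Mlst8 ranged from -3.95 to 0.19 (without DMSO replicate 1), that of Akt1s1 from -0.24 to 0.018 (without DMSO replicate 1), and that of Tsc2 from -0.56 to 0.088 (without inhibitor replicate 1). With library totals the log2FC of Akt1s1 was 0.025. The cause of these changes of sign was not tested. At |log2FC| > 1 and an adjusted p under 0.05, edgeR without the filter on low counts called 165 genes higher and 479 lower, DESeq2 95 and 471 on the tested genes, 87 and 437 on genes with a count, and 83 and 429 with transcript lengths. Each of these called 1 of the 10 genes, Rheb. Over the fits that omit 1 library, the calls ranged from 1 to 2148 genes higher and from 1 to 2065 lower, and from 0 to 3 of the 10 genes. The upper ends of these ranges all came from the fit without DMSO replicate 2. Rheb, Larp1 and Rragc were thus called there alongside many other genes. Whether the 10 genes were called more often than other genes in that fit was not tested. It leaves DMSO replicate 1 as the only control, and as in the fit without DMSO replicate 1 the lone control is assumed to vary like the treated pair. By limma on log2(FPKM + 1), the unadjusted p was 0.0133 for Rheb, 0.0849 for Larp1 and 0.0277 for Rragc. On log2(FPKM + 0.1), limma gave an unadjusted p of 0.0143, 0.0832 and 0.0285 for the same genes. With the replicate number as a block, edgeR called 12 genes higher and 32 lower and 0 of the 10. Its unadjusted p was then 0.0130 for Rheb, 0.0533 for Larp1 and 0.116 for Rragc. The labels do not say whether equal replicate numbers mark a shared origin, and the deviations of same-numbered libraries had a correlation of -0.034 across genes. DESeq2's size factors, library totals, at least 10 counts in every library, limma on FPKM and the adjusted p alone moved none of the counts of called genes, and the ratios and level ranks were the same in other units. The 2 controls, 1 of them apart, limit what could be detected.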

Other observations

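Paralogs and partners with opposite signs were noticed after the values were seen, and their differences from each other were not tested. The AMPK catalytic subunit genes differed in sign. Prkaa2 had 1.24 and 2.45 FPKM in control and 3.81 and 4.57 FPKM in treated embryos (log2FC 1.07, standard error 0.46, adjusted p = 0.338 by edgeR), against a log2FC of -1.86 for Prkaa1, and the groups of neither gene overlapped. The GATOR1 subunit gene Nprl2 had 3.72 and 15.0 FPKM in control and 30.2 and 22.3 FPKM in treated embryos (log2FC 1.42, standard error 0.63), and Nprl3, of the same complex, had 1.74 and 0.510 FPKM against 0.350 and 0.0400 FPKM (log2FC -2.79, standard error 1.40). The adjusted p by edgeR was 0.343 for Nprl2 and 0.375 for Nprl3. The rounded counts of Nprl3 were low, 93 and 24 in control and 19 and 2 in treated embryos. Without DMSO replicate 1 the log2FC was 0.77 for Prkaa2, 0.81 for Nprl2 and -1.36 for Nprl3, and that of Nprl3 was -5.02 without inhibitor replicate 1. Eef2k, the kinase that slows translation elongation, had 0.930 and 4.23 FPKM in control and 7.70 and 5.36 FPKM in treated embryos (log2FC 1.28, standard error 0.65, adjusted p = 0.379 by edgeR), with a log2FC of 0.63 without DMSO replicate 1 and 2.54 without DMSO replicate 2.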
